A study of Homo sapiens with 2 samples.

Results

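The duplicated SMN region on 5q13 is a stretch of chromosome 5 in which long blocks of sequence, with the genes SMN1, SMN2, NAIP and GTF2H2 among them, exist in near-identical copies. Its members here were the GATA2 peaks of hg19 whose midpoint lay between 68.80 and 71.00 Mb, which gave 83 of the 36797 peaks in the list. GATA2 binding had been mapped by chromatin immunoprecipitation and sequencing (ChIP-seq) in LNCaP, an established androgen-responsive prostate cancer cell line at passages 32-34. The single group held 2 replicate ChIP samples, both grown with 10% serum and then, for the last 3 days, given 5% serum stripped of steroids by charcoal treatment. Neither an input nor an untreated group was among the samples used here, and the authors deposited 1 list of peaks for the series. No value therefore has a replicate error, the read depth is unknown, and every comparison below is a description over peaks of that list. The score is the authors' own value for each peak from the peak caller MACS. Its scale is not stated, so it only ranks peaks within the list. The members were chosen by position, and the stretch itself was selected on its number of peaks per Mb in this same list, so that density is a description and not a result.

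GATA2 is a zinc-finger transcription factor that binds short DNA sites with a GATA core, and in prostate cells it is known as a pioneer factor and partner of the androgen receptor. SMN1 and SMN2 encode the survival motor neuron protein, which assembles the spliceosomal small nuclear ribonucleoproteins. Loss of SMN1 causes spinal muscular atrophy, and SMN2 differs from it mainly in how an exon is spliced. NAIP encodes an innate immune sensor of bacterial flagellin and secretion-system proteins. GTF2H2 encodes a core subunit of TFIIH, the general transcription and DNA repair factor. RefSeq (GRCh38.p14) lists 58 entries between the genes OCLN and BDP1, a stretch not matched to the hg19 limits used here, and 30 of them are pseudogenes. Among these are 7 relatives of the glucuronidase gene GUSB, 4 of NAIP and 4 of the cadherin gene CDH12. The same stretch holds 3 entries of the GTF2H2 family (GTF2H2C, GTF2H2B and GTF2H2) and 2 of the SERF1 family.

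How alike copies are at the start of a gene, though not over whole blocks, can be read from RefSeq promoter windows (GRCh38.p14). These run from 250 bases before to 50 after the gene start. Of 7 symbols looked up, 4 were matched, and SMN1, SMN2 and NAIP were not. GTF2H2 (chr5:71067627-71067926, minus strand) and GTF2H2C (chr5:69559941-69560240, plus strand) shared 270 bases after a shift of 30, with 2 mismatches, or 99.3% identity. These mismatches, in capitals below, were T57C and G238T, with positions counted from 1 at the 5′ end of the GTF2H2 window and the GTF2H2 base first. SERF1B (chr5:70025001-70025300, plus strand) and SERF1A (chr5:70900419-70900718, plus strand) were identical over all 300 bases, so their sequence is given a single time, with each GATA and its reverse complement TATC in capitals. The starts of these SERF1 windows lay 875418 bp apart in GRCh38, a distance that is given for that build alone.
GTF2H2: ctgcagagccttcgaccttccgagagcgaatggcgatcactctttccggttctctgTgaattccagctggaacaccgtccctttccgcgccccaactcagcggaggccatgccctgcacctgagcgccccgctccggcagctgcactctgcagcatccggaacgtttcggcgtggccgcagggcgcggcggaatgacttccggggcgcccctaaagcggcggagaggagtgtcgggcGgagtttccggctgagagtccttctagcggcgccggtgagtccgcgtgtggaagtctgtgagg
GTF2H2C: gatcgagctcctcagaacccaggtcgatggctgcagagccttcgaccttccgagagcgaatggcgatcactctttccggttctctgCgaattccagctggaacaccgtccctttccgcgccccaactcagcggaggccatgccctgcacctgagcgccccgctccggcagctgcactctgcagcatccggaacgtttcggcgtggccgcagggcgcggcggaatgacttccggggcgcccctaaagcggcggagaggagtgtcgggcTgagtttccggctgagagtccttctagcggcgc
SERF1A and SERF1B: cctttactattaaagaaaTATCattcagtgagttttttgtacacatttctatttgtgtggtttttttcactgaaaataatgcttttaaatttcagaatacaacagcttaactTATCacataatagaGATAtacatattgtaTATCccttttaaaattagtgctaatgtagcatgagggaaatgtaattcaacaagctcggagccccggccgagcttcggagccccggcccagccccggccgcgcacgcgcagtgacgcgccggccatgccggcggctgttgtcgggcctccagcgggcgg
The letters GATA occurred 1 time and TATC 3 times in the SERF1 window, and neither occurred in the GTF2H2 or GTF2H2C window. On either strand GATA was present in 49.7% of the 35116 RefSeq promoter windows, and nothing about binding is drawn from either. The windows show that copies of a promoter window in this stretch can be the same letter for letter over 300 bases. The bases under the peaks themselves were not analysed here, since no hg19 sequence was used.

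The peaks of the SMN region had a larger median width than the rest of the list, mainly through peaks paired between copies. Their scores spread from near the lowest in the list to 972. Their median score was 311, with a 95% interval over peaks of 171 to 381 that takes in the median of 212 in the rest of the list. Chromosome 5 outside the region had a median score of 215 (95% interval 206 to 224). The median width was 355 bp (95% interval 324 to 380 bp), against 293 bp (95% interval 291 to 294 bp) in the rest of the list. It was 381.5 bp (95% interval 356 to 417 bp) in the 46 peaks of the paired blocks described below. In the other 37 it was 303 bp (95% interval 228 to 342 bp), which takes in the 293 bp. Paired copies count as separate peaks, so the intervals for the region may be too narrow. Of the 83 peaks, 48 (57.8%) lay above the list's median score, but only 3 (3.61%) were in its best-scoring 10%. In the rest of the list 10.0% were. At the lower limit, the first peak inside scored 391 and lay 17.2 kb from it, and the nearest outside scored 174 at 51.6 kb. At the upper limit, the last peak inside scored 88.3 at 24.2 kb, and the nearest outside scored 423 at 10.9 kb.

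The genes that give the region its name held almost no called GATA2 peaks. Positions of the genes are stated to the kilobase for SMN2 (69.345 to 69.373 Mb) and SMN1 (70.221 to 70.249 Mb), and to 10 kb for NAIP (70.26 to 70.32 Mb) and GTF2H2 (70.33 to 70.36 Mb). SMN2, SMN1 and NAIP each had 0 peaks inside or within 10 kb. GTF2H2 had 1 peak inside, at 70340852 to 70340923, which was 72 bp wide and scored 102.5, and 1 more 6.03 kb beyond its end, at 70366026 to 70366126, which was 101 bp wide and scored 145.9. Both were narrow and low-scoring. Only 0.332% of all peaks were as narrow as the first and 1.16% as narrow as the second, and 86.7% and 68.3% of the list scored at least as high. The nearest peaks to SMN2 scored 405, at 64.2 kb before it, and 322, at 55.9 kb after it. The nearest to SMN1 scored 276, at 65.1 kb before it, and 102.5, at 91.9 kb after it.

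SMN2 lay in a peak-free stretch of 148 kb (69280798 to 69428917), and SMN1 and NAIP lay together in one of 185 kb (70155950 to 70340851). These were the 2 longest peak-free stretches of the region, where the median distance from the end of a peak to the start of the next was 19990 bp. In the whole list that median was 41254 bp, and 14.7% of the stretches between neighbours were at least as long as the one over SMN2. An empty stretch of this length was thus common in the list and stood out only against the dense surroundings. Depth and the treatment of reads that match several copies are unknown, so no peak there can be read only as none called.

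**Figure D1:**
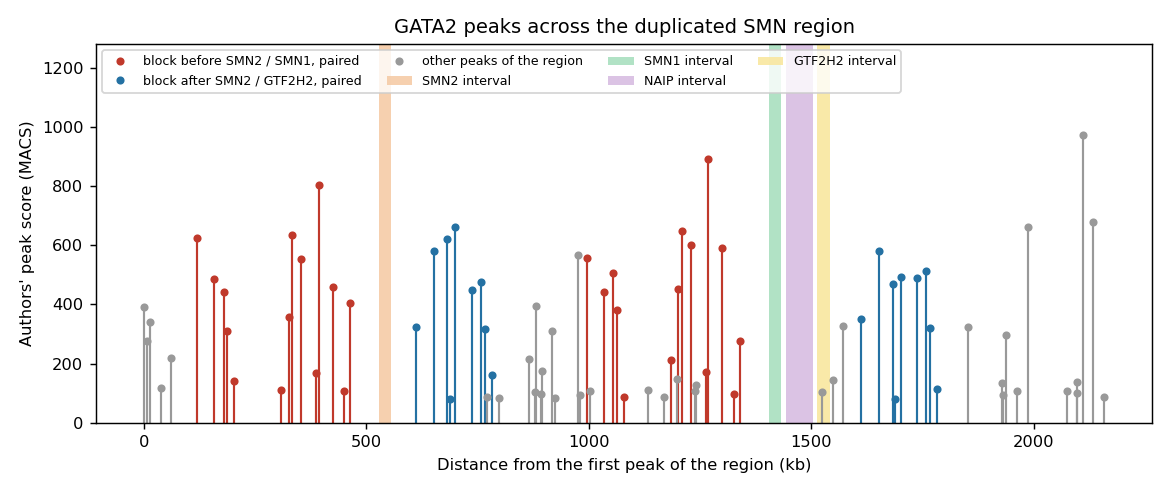
GATA2 peaks of the SMN region, with the distance from the first peak on the horizontal axis (kb) and the authors' MACS score on the vertical axis. Each stem is 1 of 83 peaks, red and blue stems are peaks paired between copies, grey stems are the others, and shaded bands are the stated gene intervals, in which a single peak of score 102.5 lies, in GTF2H2.

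Distances between peaks returned the spacing of the duplication. Over all 3403 pairs of peaks in the region, the number of pairs within 1 kb of a given distance had a median of 3 and a 99th percentile of 11 over 21486 distances scanned from 10 kb upward. The highest value was 19 pairs, at 875.5 kb, and the highest away from that distance was 16, at 25.6 kb. Next came 14 pairs each at 37.0, 374.3 and 444.1 kb. Among distances of 0.80 to 0.95 Mb, a range set with the given offset inside it, the most frequent gave an offset of 875.2 kb. With this offset, 29 of the 83 peaks (34.9%, Wilson 95% interval 25.6% to 45.7%) had a mutual partner within 500 bp, 1 of them on either side, which gave 15 pairs. Both members of a pair are counted, so the interval treats linked peaks as separate and may be too narrow. In the whole list, 2.80% of peaks had another at that distance. Such a share rises with the number of peaks per Mb, for which the region was chosen, so the difference between these shares is not read as a result. Scores of the 15 pairs within 500 bp differed by a median of 88.0 and widths by a median of 61 bp. Some of these pairs joined unlike peaks, such as a peak of score 97.8 at 69708469 with one of score 320 at 70583152.

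**Figure D2:**
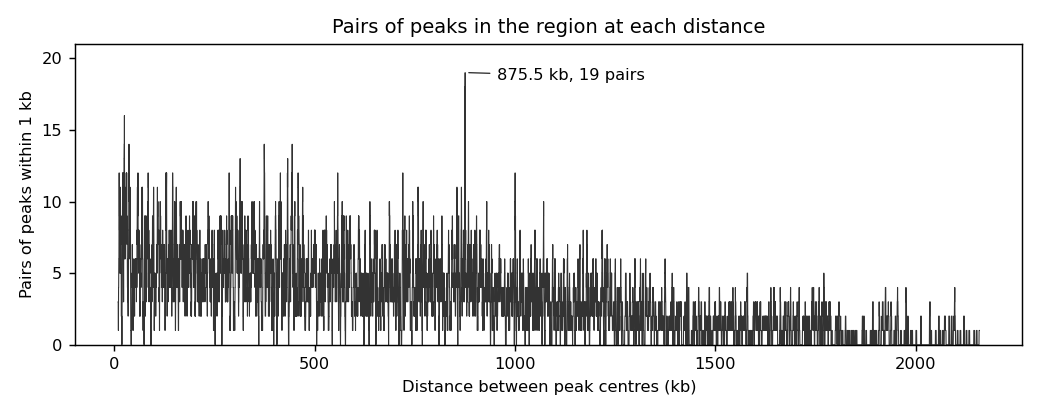
Number of pairs of region peaks (vertical axis) whose centres lie within 1 kb of each distance (horizontal axis, kb). The line stays at a median of 3 and peaks at 19 pairs at 875.5 kb.

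Of these 15 pairs, 12 belonged to 1 run of 15 pairs in the same order, which ended in front of the SMN genes. It allowed steps of up to 120 kb between successive pairs, and with steps of at most 60 kb the longest run held 9 pairs. Its first pair stood apart, and the other 14 made up a block. All 14 peaks between 68937340 and 69280797, the block that ends before SMN2, had a partner in the same order between 69813460 and 70155949, the block that ends before SMN1. The limits of a block, here and below, are its own first and last paired peaks, so such counts depend on where it was cut. The peaks starting at 68830232, 68855856 and 68878497, between the first pair of the run and the block, had no partner at the offset. Distances within the 14 pairs ran from 875.0 to 876.1 kb. The SMN1 side held 6 further peaks without a partner, and these scored 88.3 to 149, below the median of the list. From low to high position the scores on the SMN2 side were 625, 485, 442, 311, 141, 112, 359, 635, 552, 167, 804, 457, 109 and 405. On the SMN1 side they were 556, 443, 505, 381, 86.7, 211, 454, 647, 600, 171, 892, 589, 98.7 and 276. Peaks that were high on the SMN2 side were high on the SMN1 side, and the ranges of the 2 copies overlapped over nearly their whole length. Pearson's r of the scores was 0.95 and Spearman's rho 0.92 over the 14 pairs, as a description, since all points come from 1 list and the same libraries. The widths were less closely matched in rank, with a Pearson's r of 0.91 and a rho of 0.68. The run of 15 pairs had been joined by position alone, without use of score or width. Its first pair was set apart after the data had been seen, though the block itself holds a peak-free stretch of 105 kb. Values that include this pair are given below.

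Scores were alike but not equal between these copies. The median log2 ratio of SMN2-side over SMN1-side score was -0.08 (95% interval over pairs -0.34 to 0.17), and the score was higher on the SMN2 side in 5 of 14 pairs. The typical pair differed 1.13-fold, and the largest difference was 1.89-fold, at the peaks starting at 69126002 (score 112) and 70001099 (score 211). No pair had the same score or the same width. The highest-scoring pair was 69209987 to 69210904, 918 bp wide with a score of 804, and 70085286 to 70085953, 668 bp wide with a score of 892. A 15th pair, starting at 68823987 (score 277) and 69699102 (score 395), stood 113 kb before the block at the same distance of 875.2 kb. With it, r of the scores was 0.94 and rho 0.92, while r of the widths was 0.83 and rho 0.58.

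A second block followed behind the genes, at a longer distance. Of the 10 peaks between 69428918 and 69600574, after SMN2, 9 had partners in the same order between 70429239 and 70600151, after GTF2H2, and the only peak left over scored 85.9. All 9 peaks on the SMN1 side were paired. Distances here ran from 999.4 to 1000.4 kb, so the copies lay about 125 kb farther apart than those in front of the genes. Scores on the SMN2 side were 322, 579, 622, 80.8, 660, 448, 477, 317 and 163. Those on the SMN1 side were 350, 579, 467, 81.3, 494, 488, 511, 320 and 113. A weak peak at the caller's lower limit, with scores of 80.8 and 81.3, thus recurred in its place. Pearson's r of the scores was 0.92 and rho 0.82 over the 9 pairs, and the widths gave 0.72 and 0.56. The median log2 ratio of SMN2-side over SMN1-side score was -0.01 (95% interval -0.12 to 0.42). By fold the largest difference of score was in the first block, but the 2 largest absolute differences were here, at 660 against 494 for the peaks starting at 69517063 and 70517441, and 622 against 467 for those starting at 69499019 and 70499434. The next largest absolute difference, in the first block, went the other way, with 457 on the SMN2 side at 69240703 and 589 on the SMN1 side at 70115741.

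**Figure D3:**
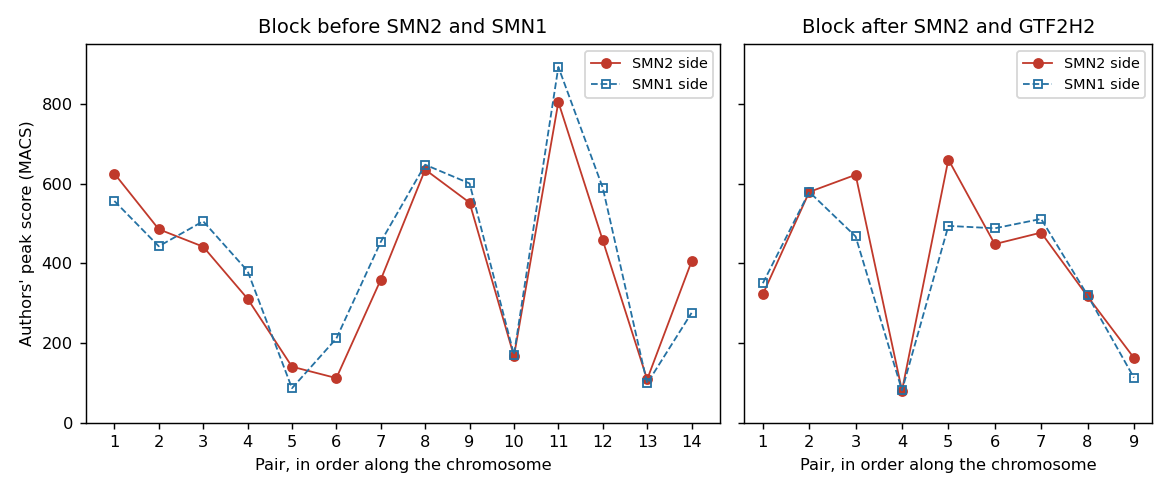
Authors' MACS score (vertical axis) of paired GATA2 peaks in order along the chromosome (horizontal axis), on the SMN2 side (filled red circles) and the SMN1 side (open blue squares), for the 14 pairs before the SMN genes (left panel) and the 9 pairs after them (right panel). The lines rise and fall together, with a largest difference of 1.89-fold.

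Partners were closer in score and width than neighbours. Over all 23 pairs of both blocks the typical difference of score was 1.11-fold, against 1.99-fold between neighbouring peaks of the region and 1.98-fold between neighbouring peaks of the whole list. Pearson's r of the scores was 0.93 in the 23 pairs, 0.09 in the 82 pairs of neighbours in the region and 0.03 in the 36773 pairs of neighbours in the list. In 15 of the 23 pairs the scores lay within 20% of each other, and in 19 the widths did. Among neighbours these counts were 13 and 28 of 82 in the region, and 6703 and 12341 of 36773 in the list. Most pairs were not equal in the strict sense. Scores lay within 2% of each other in 4 of the 23 pairs, and 1 pair had the same width. Among neighbours, scores lay within 2% in 1 of 82 in the region and in 669 of 36773 in the list. Looking across the whole region at any distance, 4 of 83 peaks (4.82%) had another with both width and score within 2%, and in the whole list, within 2.2 Mb, 5.90% did. Neither of the 2 couples involved was among the 23 pairs. With a tolerance of 5% the shares were 32 of 83 peaks (38.6%, Wilson 95% interval 28.8% to 49.3%) in the region and 30.0% in the whole list. Both tolerances look for a match within a fixed distance, so these shares also rise with the density of peaks. How reads that match several copies were placed is not given in the sources used here, and its part in the likeness of the scores was not tested.

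Inside the blocks, a shorter pattern of 5 peaks came back 6 times. It was taken from the first 5 paired peaks on the SMN2 side, called A to E, with spacings of 37.3, 21.2, 8.24 and 16.4 kb. Peaks B to E recurred within 1 kb of these spacings at 6 places in the region, 4 in the same order and 2 in mirrored order, and a peak A stood within 2 kb of its place at each. Within 500 bp, only 3 places matched. The first place is the pattern's own source. The 30 peaks involved made up 36.1% of the region's 83. In position order, peak C of the 6 occurrences started at 68995910, 69150501 (mirrored), 69575626, 69871220, 70025653 (mirrored) and 70575179. Occurrences 1 and 2 lay in the block before SMN2, 3 in the block after it, 4 and 5 in the block before SMN1, and 6 in the block after GTF2H2.

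Peaks D and E ranked lowest at every occurrence. Peak A scored 625, 804, 660, 556, 892 and 494 at occurrences 1 to 6. Peak B scored 485, 552, 448, 443, 600 and 488, and peak C 442, 635, 477, 505, 647 and 511. Peak D was lower, at 311, 359, 317, 381, 454 and 320. Peak E, the weakest, scored 141, 112, 163, 86.7, 211 and 113. Among B to E, E was the lowest and D the next lowest at 6 of 6 occurrences, while C was above B at 5 of 6. This order was read from these same peaks, and occurrences 1 and 4, 2 and 5, and 3 and 6 are partners in the blocks, so the 6 are not independent. Of 41 matches of the B to E spacing elsewhere in the list, 3 had E lowest and D next lowest. The highest score at a position was 1.36 times the lowest for B, 1.47 for C, 1.46 for D, 1.81 for A and 2.44 for E. On the log2 scale the SD of scores among occurrences of the same position was 0.29 over B to E, against an SD of 0.93 among the means of these 4 positions. Peak E was also the narrowest, at 186 to 245 bp, against 355 to 700 bp for B, 361 to 452 bp for C and 377 to 620 bp for D.

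Both mirrored occurrences scored above all 4 in the same order at A, B and C. For A the mirrored scores were 804 and 892, against 494 to 660 in the same order. For B they were 552 and 600, against 443 to 488, and for C 635 and 647, against 442 to 511. At D and E the ranges overlapped. The mirrored peaks A and B were also the widest of the region, at 668 to 918 bp. These ranges rest on 2 and 4 occurrences in 1 list, and no replicate error can be set beside them. The 2 mirrored occurrences are partners of each other in the blocks, and the 4 others also form partners, so they are not independent.

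**Figure D4:**
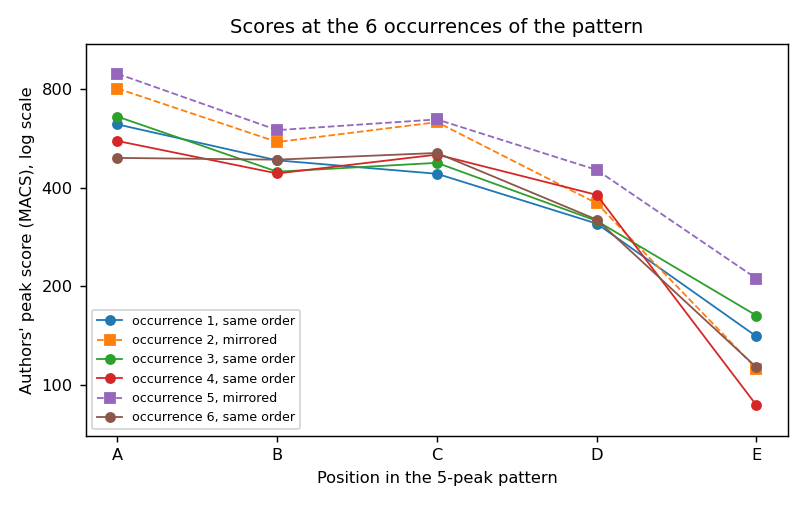
Authors' MACS score on a log scale (vertical axis) at positions A to E of the 5-peak pattern (horizontal axis), with 1 line per occurrence, solid for the same order and dashed for mirrored order. All 6 lines fall at D and reach their lowest point at E, and the mirrored lines are the highest at A, B and C.

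The same spacing was also found elsewhere in the list. Taken over both orientations, 47 matches of B to E were found from 36797 starting peaks (0.128%), 6 in the region and 41 elsewhere. All 5 positions, A included, were matched within 1 kb at 4 places in the region and 1 elsewhere. Of the 23 pairs, 15 lie in the pattern, so these findings overlap. The 8 pairs outside it had a Pearson's r of 0.91 between their scores and a typical difference of 1.09-fold.

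A couple of peaks preceded A at 3 of the 4 occurrences in the same order, but at matching distances only at occurrences 3 and 6. A strong peak followed by a weak one preceded A by 18.1 and 12.3 kb at occurrence 3, with scores of 622 and 80.8. At occurrence 6 they preceded it by 18.0 and 12.3 kb, with scores of 467 and 81.3. At occurrence 4 the peaks starting at 69792157 and 69798032 preceded it by 21.3 and 15.5 kb, with scores of 565 and 93.8. The last couple belongs to no pair of the blocks, and its place differed by about 3 kb, more than was allowed for the pattern. The couples at occurrences 3 and 6 are partners in the blocks and were already counted there. No share of such couples over the whole list is given. Another couple, chosen after its values were seen, stood between the blocks. There, peaks at 69682719 (228 bp, score 215) and 69699102 (512 bp, score 395) were 16.5 kb apart, much as E and D are in mirrored order. Whether it is a partial copy of the pattern was not tested.

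Peaks outside the 23 pairs of the blocks scored lower. The 46 paired peaks reached 445 in median score (95% interval 320 to 494), and 4 of them scored under 100. Of the other 37 peaks, 7 lay inside the blocks without a partner there and scored 85.9 to 149. The remaining 30 lay outside the blocks, with a median of 160 (95% interval 106 to 309). Blocks and pairs were defined in these same data, so this is a description. The 3 highest-scoring peaks outside the 23 pairs lay beyond the upper block, at 70927980 to 70928557 (578 bp, score 972, the highest in the region), 70950086 to 70950674 (589 bp, score 679) and 70804577 to 70805021 (445 bp, score 663). They were among 12 peaks after the last block, with a median score of 136. The other 7 of the 10 highest outside these pairs scored 309 to 565. Of these, 69792157 and 69699102, which belongs to the lone pair before the first block, are described above, 2 lay before the first block, at 68817040 (score 391) and 68830232 (score 339), and the remaining 3 began at 70388974 (score 327), 70668873 (score 323) and 69733680 (score 309).

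Few other windows of the same length held runs of paired peaks as long as these. In 1340 windows of 2.2 Mb outside the region, 2 (0.149%) held a run of 9 or more pairs in the same order, and the median longest run was 2 pairs. The region held runs of 15 and 9 pairs. The limit of 9 was thus the region's own second run, and the run rules were chosen after seeing the data. Longer runs are also easier to find where peaks are dense, for which the region was chosen. The other windows were laid end to end along each chromosome, so a run across an edge was cut. The limits of the region, in contrast, were set around its duplication. The share of 0.149% is therefore a description and not a result. The 2 other windows were on chromosome Y from 13.2 to 15.4 Mb, with 20 pairs, and on chromosome 2 from 132.0 to 134.2 Mb, with 11. Scores of their partners gave a Pearson's r of -0.20 and a rho of -0.44 on chromosome Y, and 0.05 and 0.51 on chromosome 2. The typical difference of score was 1.65-fold and 1.28-fold in these windows, whose median scores were 130 and 138. In the other 7 windows of at least 60 peaks the longest run was 6 pairs. The densest of these, on chromosome 6 from 26.4 to 28.6 Mb, had 85 peaks and a longest run of 6.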

How the data were processed

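GATA2 ChIP-seq had been carried out on 2 replicate samples of LNCaP cells. The submitters' processing notes name Bowtie and hg19, and per the labels of peaks in the deposited list the caller was MACS. Versions, control library, treatment of duplicate and multiply matching reads and pooling of replicates are not stated. The deposited score is the authors' value per peak, on an unstated scale, and no column belongs to 1 replicate. Starts were made 1-based and centres were midpoints. Mutually nearest peaks within 500 bp of the offset were partners. Runs joined pairs in the same or mirrored order with steps of at most 120 kb and a drift of at most 1 kb per step. These run rules and the 5-peak pattern were chosen after seeing the data. The code for the offset and the runs, but not that for the pattern, was run on simulated lists with planted copies. Medians have exact binomial and shares Wilson 95% intervals, which cover counting over peaks only and treat paired copies as separate peaks. Peaks named are those at the 4 genes, the highest-scoring and most different pairs, the 10 highest outside the pairs of the blocks and those at the limits. The members, lists and rules were chosen with earlier results of these data known. Gene names and promoters come from RefSeq GRCh38.p14 and were not joined to hg19 positions. Python 3.11.15, numpy 2.4.6, pandas 2.3.3, scipy 1.17.1, statsmodels 0.14.6 and matplotlib 3.10.9 were used.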

Additional observations from a re-analysis of the deposited data

How the results depend on the processing

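Of 51 alternative values, 30 stayed within 1.5 times a reported count or within the 95% interval of a reported median or share, and 21 did not. In the better-scoring 50% of the list the region kept 48 peaks (median score 462, median width 394 bp), and 19 had a partner. In the best-scoring 10% it kept 3 peaks (medians 892 and 668 bp), of which 2 (66.7%) were partners, with widths 250 bp apart. These follow from removing peaks. Partners numbered 16 (19.3%) within 100 bp, 42 (50.6%) within 2 kb and 20 (24.1%) at a reciprocal overlap of 50%. Look-alike peaks numbered 0 with exact equality, 32 at 5%, 2 in the better-scoring 50% and 0 in the top 10%. The longest run, 15 pairs as reported, had 9 with steps of at most 60 kb and 7 in the better-scoring 50%. The 6 occurrences of the pattern became 3 within 500 bp. Settings for runs and the pattern were added after seeing the data. No replicate could be left out, and no paired analysis was possible because the list carries no value per replicate. Depth is unknown, so a missing partner may lie under the caller's threshold.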
